A study of Mus musculus with 9 samples.

Results

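The transcripts described here are those of the red cell: the adult alpha globin genes Hba-a1 and Hba-a2, the adult beta globin genes Hbb-bs and Hbb-bt, and Alas2. They were chosen by symbol, each matched to its Ensembl ID in GENCODE M21, and are 5 of the 54532 gene IDs counted in the series. All 5 were detected in every one of the 9 libraries and all 5 passed the filter on low counts. The study sequenced polyA RNA from mouse striatum, a forebrain nucleus built mainly of medium spiny neurons, and its design text places the brains after ischemic stroke. The groups were cGAS KO (3 libraries), STING KO (3 libraries) and WT (3 libraries), all on the C57BL/6J background. The knockouts were made with CRISPR-Cas9, and the labels name no Cre line or cell type promoter and no number of founders. cGAS is a sensor of cytosolic DNA and STING is the adaptor that its second messenger activates. The labels give no time after stroke, no age and no word on perfusion of the brain, so the amount of blood in the tissue when it was collected is not given. They do not say that the libraries came from separate animals either, so p-values measure only the spread between these libraries.

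Hemoglobin is a tetramer of alpha-like and beta-like globin chains, each holding a heme. Red cell precursors in the marrow and reticulocytes in the blood carry its mRNA at very high levels, and mature red cells have no nucleus and little RNA left. Alas2 encodes the erythroid form of the enzyme that starts heme synthesis, while most other cells, neurons and glia included, use Alas1. In whole brain tissue globin mRNA comes largely from blood in vessels or leaked from them, and low levels have also been described in neurons. In bulk samples of this kind, fewer cells of a type and less RNA per cell cannot be told apart.

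The 2 alpha genes are near copies of each other, and so are the 2 beta genes, which bears on every value given for one of them. The coding sequences of Hba-a1 and Hba-a2, 426 bases each, differed at 1 base, C381T counted from the A of the start codon with the Hba-a1 base first. Those of Hbb-bs and Hbb-bt, 441 bases each, also differed at 1 base, C417T with the Hbb-bs base first. Both fall at base 3 of their codon, codons 127 and 139, and in both pairs the encoded protein is the same, 142 amino acids for alpha and 147 for beta. The stretches around them are printed from GENCODE M21 on GRCm38, on the coding strand. A read that lies wholly in the coding sequence and misses the differing base cannot by itself be given to 1 copy. The untranslated parts of the exons were not compared. The capital marks the base that differs.
Hba-a1 chr11:32284313-32284373 (+): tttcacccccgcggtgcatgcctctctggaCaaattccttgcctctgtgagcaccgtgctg
Hba-a2 chr11:32297130-32297190 (+): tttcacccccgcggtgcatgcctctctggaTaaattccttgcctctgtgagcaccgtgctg
Hbb-bs chr7:103826668-103826722 (-): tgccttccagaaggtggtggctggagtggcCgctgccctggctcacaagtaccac
Hbb-bt chr7:103812659-103812713 (-): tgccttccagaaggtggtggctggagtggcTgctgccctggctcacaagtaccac
The sources used here do not say how reads matching more than 1 place were counted. Levels of single copies are therefore uncertain, and the alpha and beta sums are the firmer measure, although reads dropped for matching both copies would be missing from the sums too.

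In GRCm38 coordinates Hba-a1 (ENSMUSG00000069919) lies at chr11:32283511-32284465 and Hba-a2 (ENSMUSG00000069917) at chr11:32296489-32297298, both on the plus strand. Hbb-bs (ENSMUSG00000052305) lies at chr7:103826534-103828096 and Hbb-bt (ENSMUSG00000073940) at chr7:103812524-103813996, both on the minus strand. Alas2 (ENSMUSG00000025270) lies at chrX:150547375-150570638 on the plus strand. The gene Apex2, on the minus strand at chrX:150519519-150589868, covers 311 of the 2403 exonic bases of Alas2 (12.9%). Whether counting used the strand is not stated, so in those bases reads of Alas2 and Apex2 cannot be told apart.

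The 250 bases before the RefSeq start of the members (GRCm38.p6) are shown because they let the reader compare genes on 3 chromosomes that red cell precursors use together. Only Hba-a2 is shown for alpha, since it and Hba-a1 share a run of 247 of the 250 bases. Capitals mark 4 short motifs known from red cell promoters, searched on both strands. One is GATAA, to which the erythroid regulator Gata1 binds. The CACCC box is bound by Klf1 among other factors. The remaining motifs are the CCAAT box of many promoters and, close to the start, the box spelled ATATAA. The motifs were chosen after the letters had been seen.
Hba-a2 chr11:32296242-32296491 (+): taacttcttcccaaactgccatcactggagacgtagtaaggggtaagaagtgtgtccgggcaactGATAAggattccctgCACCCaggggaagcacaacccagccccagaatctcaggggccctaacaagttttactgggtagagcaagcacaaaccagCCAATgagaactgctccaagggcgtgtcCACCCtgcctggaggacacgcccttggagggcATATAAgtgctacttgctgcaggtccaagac
Hbb-bs chr7:103827929-103828178 (-): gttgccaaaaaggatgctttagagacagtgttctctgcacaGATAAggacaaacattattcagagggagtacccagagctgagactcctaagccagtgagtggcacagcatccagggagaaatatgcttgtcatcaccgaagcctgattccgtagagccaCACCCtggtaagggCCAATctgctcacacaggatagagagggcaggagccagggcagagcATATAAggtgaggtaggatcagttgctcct
Hbb-bt chr7:103813924-103814173 (-): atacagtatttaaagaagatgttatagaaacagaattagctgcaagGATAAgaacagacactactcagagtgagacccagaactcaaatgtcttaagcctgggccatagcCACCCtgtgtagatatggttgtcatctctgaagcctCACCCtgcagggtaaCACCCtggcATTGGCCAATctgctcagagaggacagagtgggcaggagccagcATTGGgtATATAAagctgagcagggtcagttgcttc
Alas2 chrX:150547167-150547416 (+): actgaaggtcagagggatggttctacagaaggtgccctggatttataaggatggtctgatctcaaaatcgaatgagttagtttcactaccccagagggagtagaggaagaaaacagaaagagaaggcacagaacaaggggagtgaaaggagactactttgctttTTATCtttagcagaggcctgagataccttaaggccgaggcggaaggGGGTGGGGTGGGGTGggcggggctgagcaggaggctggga
GATAA stood in all 5 windows and in 22.6% of 32851 mouse promoter windows of the same length. CACCC stood in all 5 and in 52.0% of the windows. CCAAT, in 33.8% of the windows, and ATATAA, in 9.10%, stood in the 4 globin windows and not in that of Alas2. All 4 motifs occurred in 0.466% of the windows, the 4 globin ones among them. In Hbb-bt a pair of CCAAT matches on opposite strands touch each other. A match describes these letters and does not show that a factor binds.

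The libraries held between 14129021 and 21286775 counts each. In 3 of them, replicate 2 of each knockout and replicate 3 of WT, few genes were seen at low counts: 2280 to 4723 genes had 1 to 9 counts, against 7096 to 7927 in the other 6. These 3 are the low-complexity libraries below, and results of each knockout against WT are given with and without them. The label of the cGAS KO group was checked with Cgas, which had 1.10, 0.377 and 0.262 CPM in cGAS KO, 1.55, 1.04 and 1.45 CPM in STING KO and 1.398, 2.63 and 3.18 CPM in WT, so that cGAS KO and WT did not overlap, while cGAS KO replicate 1 lay above STING KO replicate 2. Sting1, listed as Tmem173, had 2.17, 1.04 and 1.84 CPM in STING KO, 2.66, 1.66 and 2.75 CPM in cGAS KO and 4.06, 3.002 and 1.34 CPM in WT. STING KO and WT overlapped for Sting1, so its counts did not separate the STING KO label from WT. No gene of the 17821 tested passed an adjusted p of 0.05 in any comparison (edgeR quasi-likelihood test).

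Red cell transcripts were a small part of each library. The 4 globin genes together had 69.3, 142 and 204 CPM in cGAS KO (CPM, counts scaled to the library's TMM-normalized size), 105, 84.1 and 96.2 CPM in STING KO and 144, 124 and 42.4 CPM in WT. As a share of all counts that was 0.00410% in WT replicate 3, the lowest library, with 600 globin counts, and 0.0190% in cGAS KO replicate 3, the highest, with 3115. The Wilson 95% intervals of those shares were 0.00379% to 0.00444% and 0.0184% to 0.0197%, and they cover counting error only. The level therefore spanned 4.81-fold over 9 libraries, far beyond counting error, and 2.94-fold over the 6 without the libraries of low complexity. The spread lay within groups: cGAS KO held the highest library and the second lowest, WT held the lowest and the second highest, and the 3 STING KO libraries sat close together in between.

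The highest members were Hba-a1 and Hbb-bs. Hba-a1, an alpha gene, had 29.8, 76.5 and 96.0 CPM in cGAS KO, 46.5, 33.8 and 42.8 CPM in STING KO and 63.8, 53.7 and 20.5 CPM in WT. Hbb-bs, a beta gene, had 33.7, 49.0 and 90.3 CPM in cGAS KO, 47.2, 38.6 and 44.9 CPM in STING KO and 68.9, 58.8 and 17.6 CPM in WT. Replicate 3 was the highest cGAS KO library for both genes and replicate 3 the lowest WT library, and all pairs of groups overlapped.

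The second copy of each pair was counted far less. Hba-a2 had 4.11, 10.8 and 8.57 CPM in cGAS KO, 4.47, 7.79 and 4.02 CPM in STING KO and 5.50, 6.54 and 2.54 CPM in WT. Hbb-bt had 1.74, 6.18 and 8.83 CPM in cGAS KO, 6.77, 3.90 and 4.47 CPM in STING KO and 5.64, 4.93 and 1.77 CPM in WT. The same cGAS KO replicate 1 and WT replicate 3 were low in their groups for both, while the STING KO order differed, with replicate 2 highest for Hba-a2 and lowest for Hbb-bt. The groups overlapped for both genes.

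Alas2, the heme synthesis enzyme of red cell precursors, had the lowest mean CPM of the 5 members. It was above Hbb-bt in cGAS KO replicate 1 (1.80 against 1.74 CPM) and STING KO replicate 2 (7.03 against 3.90 CPM). It had 1.80, 5.43 and 7.59 CPM in cGAS KO, 2.48, 7.03 and 2.57 CPM in STING KO and 5.23, 3.65 and 1.27 CPM in WT. These rest on 31, 72 and 116 counts in cGAS KO, 40, 101 and 46 counts in STING KO and 116, 68 and 18 counts in WT. cGAS KO and WT kept the order seen for summed globin, but in STING KO replicate 2 stood apart from the other libraries of its group, and the groups overlapped. Apex2, the gene that overlaps it, had 4.98, 2.71 and 3.92 CPM in cGAS KO, 5.59, 2.99 and 5.58 CPM in STING KO and 4.82, 5.41 and 6.36 CPM in WT, and was highest in WT replicate 3, where Alas2 was lowest.

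**Figure D1:**
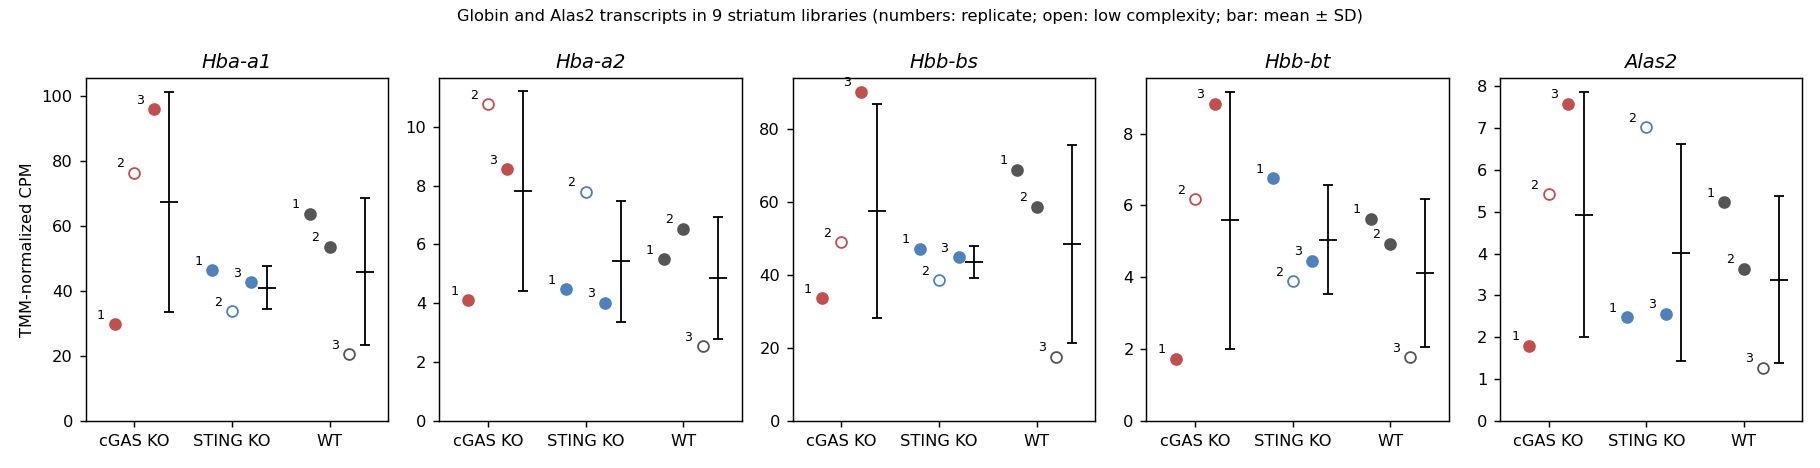
TMM-normalized CPM (y axis, linear from 0, a scale of its own for each gene) of the 5 members in the 3 cGAS KO, 3 STING KO and 3 WT libraries. Points are libraries numbered by replicate, open points are the libraries of low complexity and bars are mean ± SD. Hba-a1 runs between 20.5 and 96.0 CPM, and the groups overlap for every gene.

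Per kilobase of exon, the mean level over the 9 libraries was 65.0 ± 27.4 CPM for Hbb-bs, 63.4 ± 29.6 CPM for Hba-a1, 9.05 ± 3.93 CPM for Hba-a2, 6.99 ± 3.26 CPM for Hbb-bt and 1.71 ± 0.956 CPM for Alas2 (SD, n = 9). The SDs are of levels that largely move together over the libraries, so they do not measure the difference between members. Within libraries, Hbb-bs was above Hba-a1 in 6 of 9 and Hba-a2 above Hbb-bt in 7 of 9. Hba-a1 was above Hba-a2, and Hbb-bt above Alas2, in 9 of 9. The handling of reads that match both copies of a pair is not known and could act alike in every library. The bases in which a copy can be counted may also be fewer than its exon length. The order of single copies therefore stays uncertain.

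Alpha and beta globin, which red cells need in equal amounts, had nearly equal counts in most libraries. These counts are not scaled to length, and reads matching both copies may be missing to an unlike degree in alpha and beta. They therefore do not show that the mRNA amounts were equal. Alpha made up 49.0%, 61.3% and 51.3% of the globin counts in cGAS KO, 48.6%, 49.4% and 48.7% in STING KO and 48.2%, 48.6% and 54.3% in WT. In 7 of 9 libraries the share was thus between 48.2% and 51.3%, although their globin level differed up to 2.94-fold. The exceptions were cGAS KO replicate 2 (61.3%, Wilson 95% interval 59.1% to 63.4%) and WT replicate 3 (54.3%, 50.3% to 58.3%), both of low complexity. The first interval lies above the highest bound of the 7 others, 53.1%, and the second does not. These intervals, and those of the other shares, cover counting error only, and not the variation between libraries. They take each count as a separate draw, which may not hold in libraries of low complexity, so they may be too narrow there. The libraries set against the bounds of the rest were also picked because they lay farthest out.

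Within alpha, the share given to Hba-a2 was 12.1%, 12.3% and 8.19% in cGAS KO, 8.77%, 18.8% and 8.58% in STING KO and 7.94%, 10.9% and 11.04% in WT. Within beta, the share given to Hbb-bt was 4.91%, 11.2% and 8.91% in cGAS KO, 12.5%, 9.17% and 9.05% in STING KO and 7.56%, 7.74% and 9.12% in WT. STING KO replicate 2 was highest for Hba-a2 (interval 15.8% to 22.1%), above the highest bound of the other 8 libraries, 15.0%. It was also highest for Alas2, with 8.36 Alas2 counts per 100 globin counts. The other libraries had 2.59, 3.81 and 3.72 in cGAS KO, 2.37 and 2.67 in STING KO and 3.64, 2.94 and 3 in WT. For the alpha share, the Hba-a2 share and Alas2 the library farthest from the rest was thus one of low complexity, whereas for Hbb-bt the extremes were cGAS KO replicate 1 and STING KO replicate 1, which were not. The part of complexity in this was not tested.

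**Figure D2:**
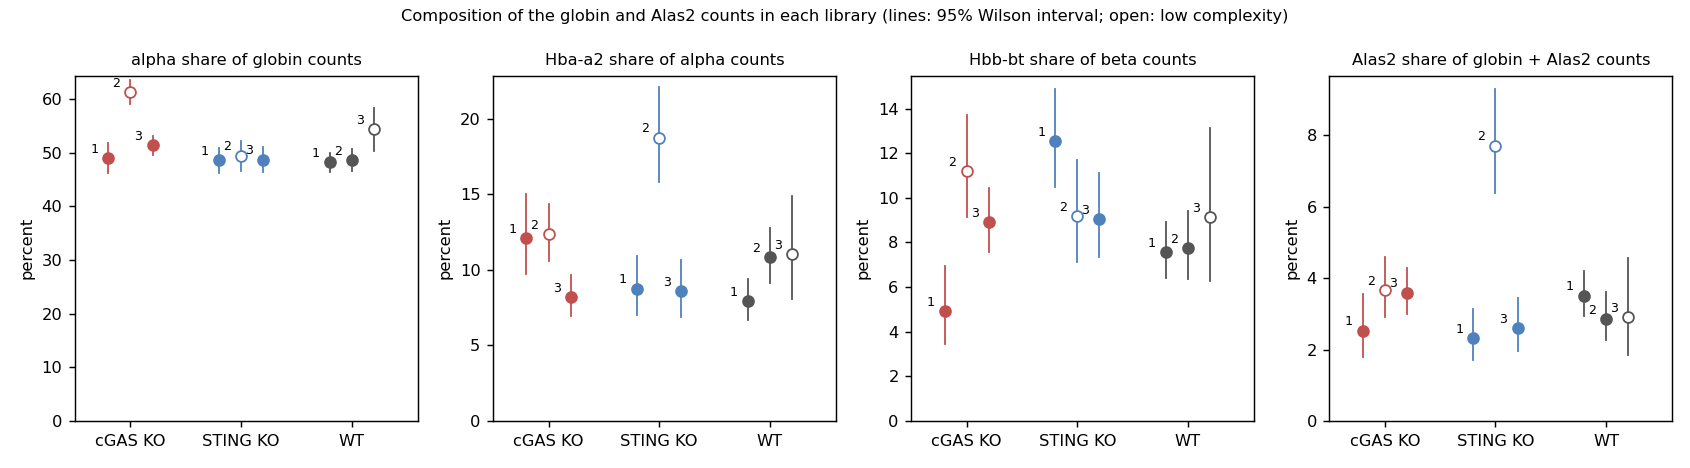
Percentage (y axis, linear from 0, a scale of its own for each panel) of globin counts that were alpha, of alpha counts given to Hba-a2, of beta counts given to Hbb-bt and of member counts given to Alas2, in the 9 libraries. Points are libraries numbered by replicate, open points are of low complexity and lines are Wilson 95% intervals. Alpha stays between 48.2% and 51.3% in 7 libraries and reaches 61.3% in cGAS KO replicate 2.

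cGAS KO against WT asks whether loss of the DNA sensor went with another level of red cell transcripts. Summed globin averaged 138.5 ± 67.3 CPM in cGAS KO, against 103 ± 53.8 CPM in WT (SD, n = 3 each), a log2 ratio of 0.42 that is smaller than the spread between libraries. None of the 5 members passed the test by edgeR, nor by DESeq2 or limma-voom, against 0% of all 17821 genes in edgeR, and none had an unadjusted p under 0.05, against 2.03% of all genes. No member's groups were without overlap, against 8% of all genes. The log2 fold changes were 0.55 ± 0.47 (SE) for Hba-a1, 0.68 ± 0.47 for Hba-a2, 0.25 ± 0.48 for Hbb-bs, 0.43 ± 0.60 for Hbb-bt and 0.53 ± 0.67 for Alas2. The smallest unadjusted p was 0.181, for Hba-a2, and no adjusted p was under 0.9998 (edgeR quasi-likelihood test, Benjamini-Hochberg). All 5 values were positive, with a median of 0.53, while 48.5% of all tested genes were positive and their median was -0.01, but the 5 share libraries and, within pairs, reads. Without the 3 libraries of low complexity the 5 values lay between -0.04 and 0.10, and the log2 ratio of summed globin was 0.03. Leaving out cGAS KO replicate 3 alone brought that ratio to 0.03, leaving out WT replicate 3 alone to 0.047, and leaving out cGAS KO replicate 1 or WT replicate 1 to 0.74.

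STING KO against WT asks the same of the adaptor. Summed globin averaged 95.07 ± 10.5 CPM in STING KO, against 103 ± 53.8 CPM in WT (SD, n = 3 each), a log2 ratio of -0.12. None of the 5 members passed the test by edgeR, against 0% of all genes, none had an unadjusted p under 0.05, against 1.63%, and none had groups without overlap, against 7.07%. The log2 fold changes were -0.17 ± 0.47 (SE) for Hba-a1, 0.15 ± 0.47 for Hba-a2, -0.15 ± 0.48 for Hbb-bs, 0.29 ± 0.60 for Hbb-bt and 0.24 ± 0.67 for Alas2. The smallest unadjusted p was 0.640, for Hbb-bt, and no adjusted p was under 0.9998 (edgeR quasi-likelihood test). The median of the 5 was 0.15, against -0.0044 over all tested genes, of which 49.4% were positive. Without the 3 libraries of low complexity Alas2 was at -0.82 ± 0.57 and Hba-a2 at -0.50 ± 0.35, both opposite in sign to the values with all 9 libraries, and summed globin at -0.41. The ratio of summed globin was -0.50 without WT replicate 3 and 0.20 without WT replicate 1.

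STING KO against cGAS KO sets the knockouts side by side. Summed globin averaged 95.07 ± 10.5 CPM in STING KO, against 138.5 ± 67.3 CPM in cGAS KO (SD, n = 3 each), a log2 ratio of -0.54. None of the 5 members passed the test by edgeR, against 0% of all genes, none had an unadjusted p under 0.05, against 1.45%, and none had groups without overlap, against 7.35%. The log2 fold changes were -0.72 ± 0.47 (SE) for Hba-a1, -0.53 ± 0.47 for Hba-a2, -0.40 ± 0.48 for Hbb-bs, -0.14 ± 0.59 for Hbb-bt and -0.29 ± 0.67 for Alas2. The smallest unadjusted p was 0.159, for Hba-a1, and no adjusted p was under 0.9998 (edgeR quasi-likelihood test). The median of the 5 was -0.40, against 0.01 over all tested genes, of which 51.1% were positive. The ratio of summed globin was -0.15 without cGAS KO replicate 3 and -0.86 without cGAS KO replicate 1. Over all runs, alternatives included, the fold changes ranged from -1.07 to -0.37 for Hba-a1 and from -0.90 to -0.23 for Hba-a2. They ranged from -0.71 to 0.079 for Hbb-bs, from -0.57 to 0.36 for Hbb-bt and from -1.21 to 0.16 for Alas2. The 3 comparisons share their groups in pairs, so they are not separate evidence.

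**Figure D3:**
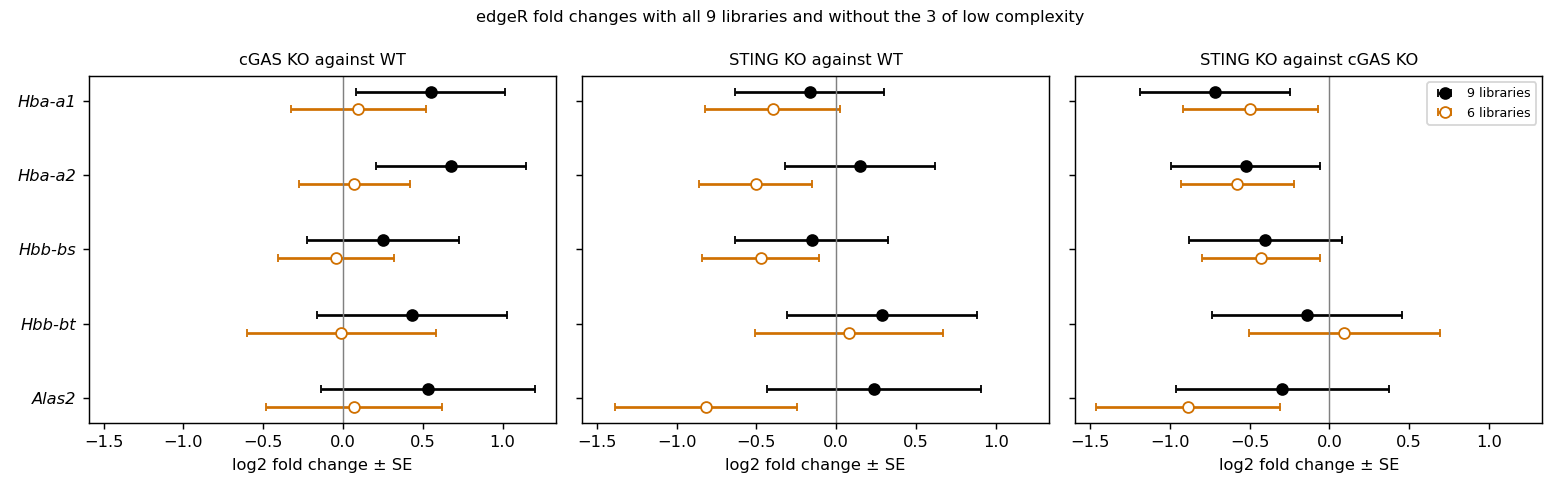
edgeR log2 fold changes (x axis) of the 5 members in the 3 comparisons, with bars of ± 1 SE, from all 9 libraries (filled) and from the 6 libraries left without those of low complexity (open). In cGAS KO against WT the filled points lie between 0.25 and 0.68 and the open points between -0.04 and 0.10.

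With spreads of this size, a p that misses the threshold does not show that the groups had alike levels of red cell transcripts. Over the 9 libraries the SD of log2 CPM was 0.70 for Hba-a1, 0.63 for Hba-a2, 0.67 for Hbb-bs, 0.79 for Hbb-bt and 0.87 for Alas2, against a median of 0.42 over all tested genes. Between 71.4% (Hba-a2) and 83.4% (Alas2) of the tested genes had a lower SD than the member. The highest library exceeded the lowest 4.24-fold for Hba-a2 and 5.97-fold for Alas2, with the other members in between.

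**Figure D4:**
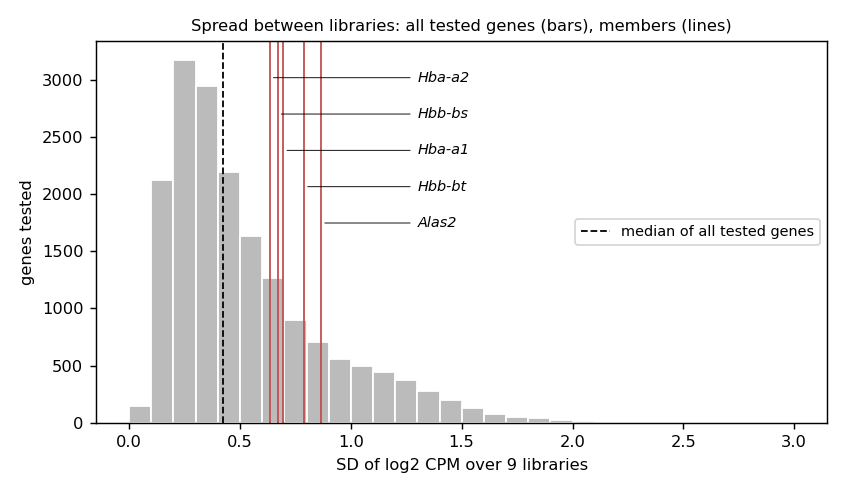
Histogram of the SD of log2 CPM over the 9 libraries for the 17821 tested genes (x axis, log2 units; y axis, genes), with the 5 members marked. The members lie between 0.63 and 0.87, above the median of 0.42.

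Globin was set beside markers of the vessel wall. The summed level of 10 endothelial markers was 346, 312 and 391 CPM in cGAS KO, 314, 309 and 317 CPM in STING KO and 372, 388 and 337 CPM in WT, a 1.26-fold range against 4.81-fold for globin. Globin per unit of endothelial CPM was 0.201, 0.457 and 0.521 in cGAS KO, 0.335, 0.272 and 0.303 in STING KO and 0.386, 0.320 and 0.126 in WT. The order of the libraries was thus nearly that of globin itself. Single endothelial genes varied more than their sum, which Slco1a4 and Flt1 dominate. Ly6c1 ran between 7.08 and 45.8 CPM and the tight junction gene Cldn5 between 5.16 and 25.0 CPM, and both were lowest in the libraries of low complexity. All 3 STING KO sums lay below all 3 WT sums, so the ratio does not divide by the same level in these groups. In STING KO against WT, 3 of the 10 genes were positive and 7 negative. There 2 had an unadjusted p under 0.05 (edgeR quasi-likelihood test), against 1.63% of all genes. No endothelial gene passed the test in any comparison. The most abundant were Slco1a4, an anion transporter of the blood-brain barrier, the VEGF receptor Flt1 and Ly6c1, with means of 91.5, 107 and 23.5 CPM in cGAS KO, 88.5, 91.6 and 23.9 CPM in STING KO and 121, 91.1 and 31.6 CPM in WT.

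Markers of brain regions also moved between the libraries. Summed cortical neuron markers (8 genes) were 389, 564 and 145 CPM in cGAS KO, 678, 336 and 530 CPM in STING KO and 111, 482 and 1243 CPM in WT. The libraries with the most globin, cGAS KO replicate 3 and WT replicate 1, had the lowest cortical sums, and the one with the least globin, WT replicate 3, had the highest. This order did not hold throughout: cGAS KO replicate 2, with 142 CPM of globin, had a cortical sum of 564 CPM, and cGAS KO replicate 1, with 69.3 CPM, one of 389 CPM. WT replicate 3 also had the lowest sum of 12 medium spiny neuron markers, 5027 CPM, against 8513 to 10395 CPM in the other 8, and the lowest share of counts from ribosomal protein genes, 0.234% against 0.441% to 0.904%. WT replicate 1 had the highest choroid plexus sum, 4461 CPM. The part of these differences in the globin levels was not tested.

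Other genes of the red cell lineage gave little signal. Of 6 embryonic and minor globins none passed the filter: Hba-x, Hbb-bh1 and Hbb-bh2 had no count in any library, Hbb-y at most 2 and Hbq1b at most 3. Hbq1a, a theta globin, had 0, 12 and 0 counts in cGAS KO, 5, 0 and 3 counts in STING KO and 1, 3 and 0 counts in WT. By counting error alone, a gene at 0 counts may still be present at up to 0.135 to 0.226 CPM, depending on the library. In the libraries of low complexity a 0 may hide more. Neuroglobin (Ngb), for example, had no count in cGAS KO replicate 2 and STING KO replicate 2, but 0.670 to 2.84 CPM in the other libraries. Nearly all globin counts were thus those of the adult genes.

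Of 15 genes of the red cell membrane and skeleton, 8 passed the filter and none passed the test in any comparison; in cGAS KO against WT 5 were positive and 3 negative. Several genes known from the red cell membrane had few counts: the anion exchanger Slc4a1 had at most 11 in a library and the Rh-associated glycoprotein Rhag none. Ermap, an erythroid membrane protein, had up to 34 counts and none in WT replicate 3, and Gypc between 3 and 23. The abundant genes of the list, Add2, Sptb and Dmtn, encode skeleton proteins that neurons also make. Add2 averaged 519 ± 137 CPM in cGAS KO, 416 ± 76.6 CPM in STING KO, against 438 ± 70.5 CPM in WT. Sptb averaged 419 ± 104 CPM in cGAS KO, 335 ± 9.57 CPM in STING KO, against 303 ± 8.64 CPM in WT. Dmtn averaged 305 ± 37.7 CPM in cGAS KO, 318 ± 56.9 CPM in STING KO, against 281 ± 45.8 CPM in WT (SD, n = 3 each).

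Of 20 regulators and reticulocyte genes, 19 had an ID, 13 passed the filter and none passed the test. In cGAS KO against WT 9 were positive and 4 negative; STING KO gave 8 positive values against WT and 4 against cGAS KO. The master regulator Gata1 had no count in any library and Klf1, the activator of adult beta globin, had at most 3. Nfe2 and Hemgn had at most 4 each. Tal1 and Epor of the same list were counted in every library, with 18 to 46 and 50 to 272 counts. Most counts came from widely expressed genes, led by Rnf10, Ube2o and Mkrn1, ubiquitin ligases or conjugating enzymes, with means of 273, 162 and 130 CPM in cGAS KO, 240, 150 and 115 CPM in STING KO and 226, 146 and 104 CPM in WT. Adult globin mRNA was thus counted in libraries where Gata1 and Klf1, though not every regulator of the list, were at or near 0.

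The heme synthesis and iron import list was led by genes that are not particular to red cells. All 15 genes of the list, Alas2 among them, passed the filter, and none passed the test in any comparison. Alas1, the form used outside red cells, had 43.6, 33.5 and 39.9 CPM in cGAS KO, 46.3, 27.1 and 47.5 CPM in STING KO and 45.4, 46.6 and 35.6 CPM in WT, well above Alas2 in every library. The most abundant were the transferrin receptor Tfrc, the iron transporter Slc11a2 and the mitochondrial iron importer Slc25a37, with means of 87.1, 55.2 and 48.5 CPM in cGAS KO, 101, 57.5 and 61.1 CPM in STING KO and 124, 60.9 and 59.5 CPM in WT. The summed list, to which Alas2 adds little, ranged 1.31-fold over the libraries, whereas Alas2 itself ranged 5.97-fold and Urod, a later enzyme of the pathway, ran between 9.18 and 27.6 CPM.

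Genes that clear hemoglobin and heme were measured because bleeding and red cell breakdown engage them. Of 12 genes, 10 passed the filter and none passed the test. In cGAS KO against WT 9 were positive and 1 negative, with a median log2 fold change of 0.13, while 48.5% of all genes were positive. STING KO gave 6 positive and 4 negative values against WT, and 5 positive and 5 negative against cGAS KO. Hmox1, the inducible heme oxygenase, had 2.84, 0.980 and 2.03 CPM in cGAS KO, 2.86, 1.39 and 3.52 CPM in STING KO and 3.16, 2.09 and 0.918 CPM in WT. Cd163, the macrophage receptor for haptoglobin-bound hemoglobin, had 9.50, 20.9 and 17.1 CPM in cGAS KO, 10.4, 20.3 and 11.9 CPM in STING KO and 13.9, 15.7 and 13.6 CPM in WT. Both overlapped between all groups, and Hmox1 was lowest in the libraries of low complexity. The most abundant were Fth1, the ferritin heavy chain, Lrp1, a receptor for heme-hemopexin, and Slc48a1, a heme transporter, with means of 1080, 858 and 129 CPM in cGAS KO, 1128, 738 and 127 CPM in STING KO and 973, 764 and 116 CPM in WT. Those means hide wide spreads within groups. Fth1 had 572, 342 and 283 CPM in the libraries of low complexity and 1287 to 1745 CPM in the others. Lrp1 was lowest in WT replicate 1, at 515 CPM, and highest in WT replicate 3, at 1224 CPM.

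Markers of other blood cells mostly had few counts, with Cd4 as the main exception. Of 12 platelet genes 3 passed the filter, of 12 neutrophil genes 2 and of 13 lymphocyte and monocyte genes 1, and none passed the test. The platelet chemokines Pf4 and Ppbp had at most 7 and 9 counts in a library, the neutrophil alarmins S100a8 and S100a9 at most 3 and 6, and the T cell receptor chain Cd3e at most 2. Itgb3, Itga2b and Gp1ba led the platelet list with means of 3.06, 2.49 and 0.905 CPM in cGAS KO, 4.28, 2.16 and 0.869 CPM in STING KO and 5.72, 1.16 and 1.09 CPM in WT. Csf3r led the neutrophil list with means of 8.16 CPM in cGAS KO, 7.98 CPM in STING KO, against 8.01 CPM in WT, and Cd4 the lymphocyte list with 74.9 CPM in cGAS KO, 68.1 CPM in STING KO, against 69.4 CPM in WT. Albumin (Alb), a plasma protein made in liver, had 1 count in all 9 libraries together, and Ttr, the only gene of its list to pass the filter, is also a gene of the choroid plexus list.

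**Figure D5:**
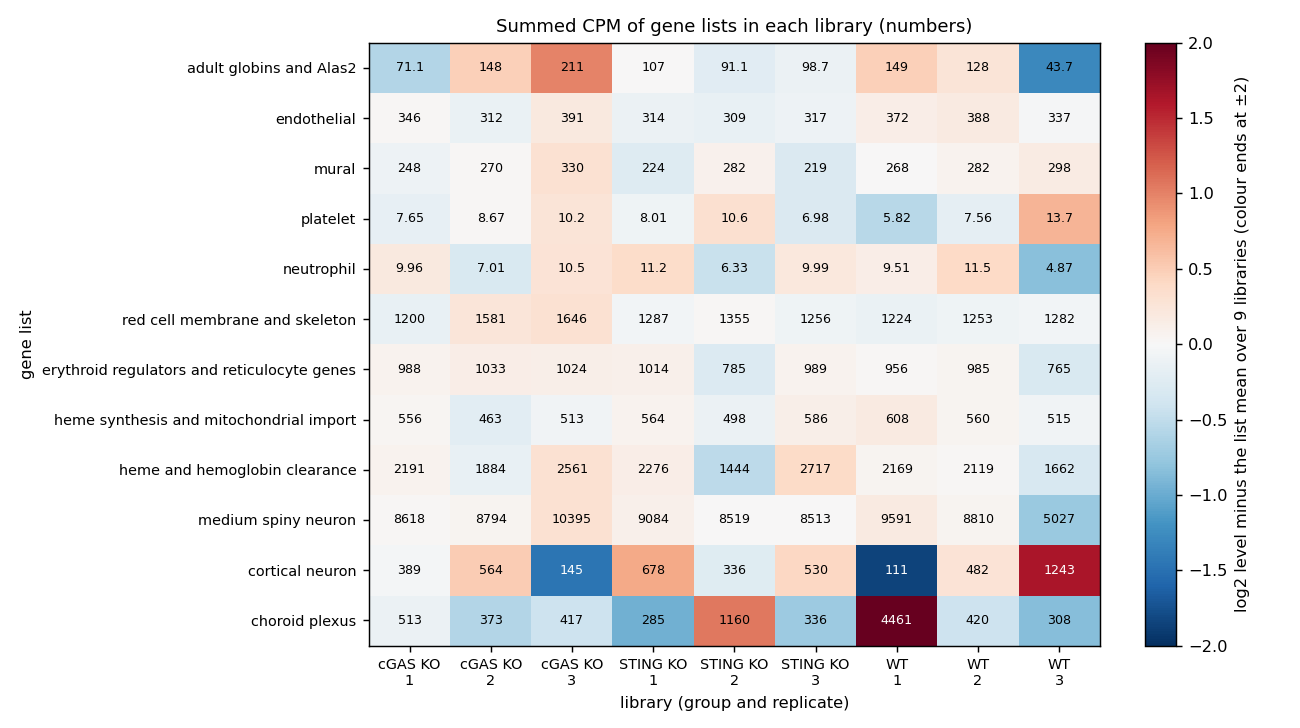
Heat map of the summed CPM of 12 gene lists (rows) in the 9 libraries (columns). Numbers are the summed CPM and colour is the log2 level minus the mean of that list over the libraries, ending at 2 either way. The adult globins with Alas2 run between 43.7 and 211 CPM, the endothelial list between 309 and 391 CPM.

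The other members of the globin family, which are not made mainly in red cells, were counted too. Cygb, cytoglobin, had 46.2, 20.6 and 29.1 CPM in cGAS KO, 46.5, 15.3 and 37.5 CPM in STING KO and 41.5, 40.2 and 19.1 CPM in WT, and was lowest in the libraries of low complexity. Adgb averaged 2.996 ± 1.83 CPM in cGAS KO, 3.29 ± 2.80 CPM in STING KO, against 2.96 ± 0.837 CPM in WT, and neuroglobin, Ngb, 1.32 ± 1.43 CPM in cGAS KO, 0.844 ± 0.943 CPM in STING KO, against 1.38 ± 0.526 CPM in WT (SD, n = 3 each). All 4 genes of this family passed the filter and none passed the test.

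Across the 9 libraries the levels of the members were compared with the globin mean. The Pearson correlation of log2 CPM with the mean of the 4 globins was 0.975 for Hba-a1, 0.941 for Hbb-bs, 0.938 for Hbb-bt, 0.848 for Alas2 and 0.842 for Hba-a2, where each globin is itself part of the mean and Alas2 is not. Alas2 ranked 86 of 17821 genes. Among the genes that are no members and were most alike were Cnst (0.962), Micall2 (0.934), Pik3c3 (0.933), Synpo2 (0.925), Inf2 (0.925), BC049352 (0.921), Micu2 (0.917), Blmh (0.912) and Nipal3 (0.908). These are descriptions over 9 points that share depth and complexity, and WT replicate 3 was the lowest library for all 9 of those genes. Their levels ranged less than those of globin: Cnst, for example, had 99.3, 139 and 139 CPM in cGAS KO, 111, 113 and 112 CPM in STING KO and 119, 112 and 82.6 CPM in WT.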

How the data were processed

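The authors deposited 1 table of raw counts per gene for each of 9 libraries; HISAT2, featureCounts and the build mm10 are named, without versions or settings, per the submitters' processing notes. The sources used here give neither strand nor multi-match settings. Of 54532 Ensembl IDs, 54495 matched GENCODE M21. The test was edgeR 4.0.16 (R 4.3.3): TMM normalization, filterByExpr (17821 genes kept), a quasi-likelihood F test on a model of group fitted to the 9 libraries together, and Benjamini-Hochberg adjustment over all genes tested at a threshold of 0.05. The script was first run on simulated counts with known fold changes. CPM values are TMM-normalized. Summed globin has no test. Alternatives were other scalings, no filter, a replicate block, left-out libraries, DESeq2 1.42.0 and limma 3.58.1 (voom, with and without quality weights). Intervals are Wilson 95%, and the floor is 3 counts. Libraries held 14129021 to 21286775 counts, which sets the precision of each value. Named were all 5 members, the 3 genes of highest mean CPM in each list plus any that passed the test, the 10 genes most like the globin mean by Pearson r of log2 CPM (prior count 2), and the targeted genes. A few genes that this rule or the lists would name are not reported here. Other genes, such as Alas1, Hmox1, Cd163 and those near 0 counts, were named after their values were seen. The members, lists and tests were chosen with earlier results of these data known.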

Additional observations from a re-analysis of the deposited data

How the results depend on the processing

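None of the 5 members was called under any alternative run, so the count of members called stayed 0 in all 3 comparisons. The smallest adjusted p of any member was 0.0712 (Hba-a2, STING KO against cGAS KO, limma-voom with quality weights). Directions were less firm: of 240 fold changes under alternatives 24 had the opposite sign, in 10 of the 15 member results. Without the 3 libraries of low complexity, cGAS KO against WT gave -0.044 for Hbb-bs and -0.011 for Hbb-bt, STING KO against WT gave -0.50 for Hba-a2 and -0.82 for Alas2, and STING KO against cGAS KO gave 0.093 for Hbb-bt. With limma-voom, Hbb-bs was 0.033 in STING KO against WT and Hbb-bt 0.16 in STING KO against cGAS KO, and with quality weights Hba-a2 was -0.54 and Alas2 -0.57 in STING KO against WT. The cause was not tested. Leaving out 1 library at a time, cGAS KO against WT ranged from -0.23 to 0.59 for Hbb-bs and from -0.072 to 0.86 for Hbb-bt. STING KO against WT ranged from -0.52 to 0.15 for Hba-a1, from -0.20 to 0.42 for Hba-a2, from -0.55 to 0.19 for Hbb-bs, from -0.070 to 0.59 for Hbb-bt and from -0.43 to 0.70 for Alas2. STING KO against cGAS KO ranged from -0.68 to 0.079 for Hbb-bs, from -0.57 to 0.36 for Hbb-bt and from -0.96 to 0.16 for Alas2. The log2 ratio of summed globin ranged from 0.03 to 0.74 in cGAS KO against WT, from -0.50 to 0.20 in STING KO against WT and from -0.86 to -0.15 in STING KO against cGAS KO, and was 0.06 as a geometric mean in STING KO against WT.

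Over all genes, edgeR called 0 in each comparison, with 361 (cGAS KO against WT), 291 (STING KO against WT) and 258 (STING KO against cGAS KO) at an unadjusted p under 0.05. In cGAS KO against WT DESeq2 called 1 and quality weights 4. In STING KO against WT no filter gave 4, leaving out the libraries of low complexity 4, DESeq2 10 and quality weights 178. In STING KO against cGAS KO no filter gave 4, leaving out those libraries 3, DESeq2 8 and quality weights 29. The replicate block called 0 of the 5 members in each comparison. Same-numbered libraries correlated between -0.45 and 0.50. The 3 libraries of low complexity, whose numbers differ, correlated with each other at 0.47 to 0.53. This check therefore cannot tell whether the numbers pair the libraries. No scaling moved the median of all genes by over 0.1. Depth limits Alas2 most, with 18 counts in its lowest library.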

Other observations

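Markers of the tissues around the striatal neurons varied between libraries without any gene passing the test. Summed mural cell markers (8 genes) averaged 283 ± 42.1 CPM in cGAS KO, 242 ± 35.1 CPM in STING KO, against 282 ± 14.9 CPM in WT, led by Rgs5, Vtn and Pdgfrb. Rgs5, a pericyte gene, averaged 141 CPM in cGAS KO, 121 CPM in STING KO, against 169 CPM in WT. Summed meningeal and fibroblast markers (9 genes, led by the collagens Col1a2 and Col1a1 and by Dcn) averaged 34.5 ± 10.4 CPM in cGAS KO, 34.1 ± 8.60 CPM in STING KO, against 43.2 ± 4.07 CPM in WT. Choroid plexus markers (11 genes, led by Enpp2, Ttr and Clic6) were 513, 373 and 417 CPM in cGAS KO, 285, 1160 and 336 CPM in STING KO and 4461, 420 and 308 CPM in WT, so that 1 WT library held most of this signal. Except in WT replicate 1, most of each sum was Enpp2 alone. Enpp2 had 290, 341 and 320 CPM in cGAS KO, 202, 644 and 270 CPM in STING KO and 1638, 294 and 267 CPM in WT. Ttr ran between 4.14 CPM in cGAS KO replicate 2 and 2483 CPM in WT replicate 1. Midbrain dopaminergic markers (6 genes, led by Slc18a2, Ddc and Th) averaged 23.7 ± 0.962 CPM in cGAS KO, 18.6 ± 2.09 CPM in STING KO, against 22.7 ± 3.99 CPM in WT (SD, n = 3 each).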
